A study of Mus musculus with 9 samples.

Results

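The genes described here encode secreted or cell-surface proteins of innate defense and of the acute-phase response: Slpi, Lcn2, C3, Cfb, Saa3, Hp, Orm1, Serpina3n, Vnn1 and Vnn3. Members were taken as the probe sets that name 1 of these 10 genes alone, which gave 9 probe sets of the 22626 analysed, 1 for each of 9 genes of the 12393 that a probe set names alone. C3 was named alone by no probe set and is not analysed here. The 10 genes were selected on results of these arrays. Their antibody differences, with any interval or count past a threshold, are therefore given as a description that supports nothing. HGF/SF1 against untreated cells was not used in the choice. It shares its untreated arrays with the antibody comparison, so its values are not independent of the choice.

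MLP29 is a line of mouse hepatic progenitor cells, and its RNA was hybridised to Affymetrix Mouse430A_2 arrays, 1 array for each of 9 samples. Cells were kept in 0.1% serum for at least 16 h in every condition. They were then left untreated, treated for 24 h with 10 µg/ml of a function-blocking antibody (clone BMB5) to α5β1 integrin, the fibronectin receptor, or treated for 24 h with 20 ng/ml of HGF/SF1, the ligand of the receptor Met. Each condition was measured once in each of 3 experiments, called 1, 2 and 3 below, and the labels name no control antibody for the untreated arrays. The study's methods mention a control IgG among its control experiments without saying whether these samples received it, so an effect of adding antibody was not tested here.

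Values are log2 units of probe set signal, in which a difference of 1 is a 2-fold change. Array medians lay between 5.91 and 6.08, and the 9 arrays correlated with r from 0.971 to 0.997 over all probe sets. Of 9 biliary and liver progenitor markers 7 were measured, and by condition means 4 exceeded the array median, the keratins Krt18 (14.04 in untreated cells), Krt8, Krt19 (13.40) and Krt7 (6.59), whereas Epcam (4.42), Sox9 (5.15) and Prom1 (4.38) did not. None of 9 hepatocyte markers, Alb among them, exceeded it. Of the neutrophil markers, the means of S100a8 and S100a9 exceeded the median in each condition, though S100a9 read as low as 4.80 and S100a8 5.84 in untreated cells of experiment 2, whereas Csf3r, Elane and Mpo stayed between 3.59 and 4.41 on all arrays and the pan-leukocyte marker Ptprc between 3.02 and 3.38.

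The acute-phase response is a change in plasma protein synthesis, mainly in the liver, driven by cytokines such as interleukin 6 and interleukin 1 through the transcription factors STAT3, NF-kappaB and C/EBP. Epithelia make many of the same proteins locally: antiproteases such as Slpi shield tissue from neutrophil elastase, lipocalin 2 withholds iron from bacteria by binding their siderophores, and complement factor B forms the convertase of the alternative pathway with C3. Vanins are pantetheinases, which release cysteamine and pantothenate, the vitamin precursor of coenzyme A.

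Slpi, Lcn2, Saa3 and Vnn3, members with different behaviour after the antibody, had a promoter in the RefSeq table for GRCm38.p6, and the 250 bases before their start are shown because these are the windows in which binding motifs of the acute-phase factors were searched. Each is written 5′ to 3′ on the strand of the gene, and capitals mark a match to the C/EBP motif TTNNGCAA on either strand. The windows are chr2:164356508-164356757 on the minus strand for Slpi, chr2:32387740-32387989 on the minus strand for Lcn2, chr7:46715677-46715926 on the minus strand for Saa3 and chr10:23851212-23851461 on the plus strand for Vnn3.
Slpi: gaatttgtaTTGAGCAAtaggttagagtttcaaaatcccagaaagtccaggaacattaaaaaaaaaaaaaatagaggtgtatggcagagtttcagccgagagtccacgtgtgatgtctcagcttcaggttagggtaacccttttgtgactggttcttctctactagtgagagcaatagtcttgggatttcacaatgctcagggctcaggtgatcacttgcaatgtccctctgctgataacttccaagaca
Lcn2: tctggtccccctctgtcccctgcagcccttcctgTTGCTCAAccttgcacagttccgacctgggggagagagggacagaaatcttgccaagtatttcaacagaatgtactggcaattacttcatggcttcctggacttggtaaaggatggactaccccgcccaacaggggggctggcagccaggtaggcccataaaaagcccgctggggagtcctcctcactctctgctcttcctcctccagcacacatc
Saa3: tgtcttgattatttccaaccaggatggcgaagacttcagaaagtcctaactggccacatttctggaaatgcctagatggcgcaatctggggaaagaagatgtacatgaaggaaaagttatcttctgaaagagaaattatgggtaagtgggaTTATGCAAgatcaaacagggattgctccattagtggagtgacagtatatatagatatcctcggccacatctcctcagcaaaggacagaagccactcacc
Vnn3: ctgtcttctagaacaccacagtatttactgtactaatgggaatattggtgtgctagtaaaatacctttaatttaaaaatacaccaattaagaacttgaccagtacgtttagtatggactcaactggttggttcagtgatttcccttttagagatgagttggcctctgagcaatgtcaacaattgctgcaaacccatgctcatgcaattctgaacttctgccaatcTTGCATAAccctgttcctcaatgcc

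The C/EBP letters stood once in each of these windows. The match began 241 bases before the start in Slpi, 216 in Lcn2, 99 in Saa3 and 25 in Vnn3, and it lay on the opposite strand in Lcn2 and Vnn3. In Lcn2 it is the reverse complement of the match in Slpi, and in Vnn3 that of the match in Saa3. Windows were found for 6 of the 10 genes, the other 2 being those of C3 and Serpina3n. The C/EBP motif matched in 5 of the 6, in all but Serpina3n, against 9.56% of all 32851 windows. The NF-kappaB motif, a degenerate form searched on both strands, matched in 1 of the 6, Serpina3n, against 4.11% of all windows, and the STAT motif TTCNNNGAA in 0 of the 6, against 7.02%. No match overlapped another. A match describes these letters in this window and was not tied to binding. The Saa3 window lies within the annotated span of the gene (7:46711998-46719615), since it precedes the start that the promoter table uses. The Serpina3n window (12:104406458-104406707, plus strand) overlaps its gene in part, since the annotated span begins at 104406646.

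Slpi, the secretory leukocyte protease inhibitor (2:164354070-164356507), was read at 9.95, 9.86 and 9.75 in untreated cells of experiments 1, 2 and 3. HGF/SF1-treated cells gave 9.56, 9.81 and 9.83, and antibody-treated cells 11.37, 11.65 and 11.42. All 3 antibody arrays thus lay above all 6 others, and the arrays of a condition spanned 0.21, 0.28 and 0.29 log2 units. The mean was 9.85 ± 0.10 (SD, n = 3) in untreated cells and 11.48 ± 0.15 after the antibody, a difference of 1.63 (SE 0.12) or 3.10-fold. Within experiments the difference was 1.42, 1.80 and 1.68.

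Vnn3, a pantetheinase of the vanin family (10:23851462-23869843), was read at 6.58, 6.83 and 6.82 in untreated cells. Its values were 6.30, 6.56 and 6.88 after HGF/SF1 and 7.99, 7.50 and 8.02 after the antibody. Here too the antibody arrays did not overlap with the other 6. The mean went from 6.74 ± 0.14 to 7.84 ± 0.29 (SD, n = 3), a difference of 1.09 (SE 0.19) or 2.14-fold, with 1.41, 0.68 and 1.20 in the 3 experiments.

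Vnn1 (10:23894688-23905344), the neighbouring gene with an interval of 24844 bp between them, encodes the membrane-anchored vanin and did not share this pattern. It was read at 11.91, 12.24 and 12.27 in untreated cells, 12.14, 12.24 and 12.41 after HGF/SF1 and 12.12, 12.08 and 12.27 after the antibody. The conditions overlapped, and antibody and untreated cells differed by 0.02 (SE 0.13, 95% interval -0.28 to 0.31). In each experiment the antibody difference of Vnn3 exceeded that of Vnn1, by 1.20, 0.84 and 1.20. The signal of Vnn1 lay at percentile 98.5 of all probe sets, a rank of brightness and not of transcript number, and how far a bright probe set still follows an increase was not tested.

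**Figure D1:**
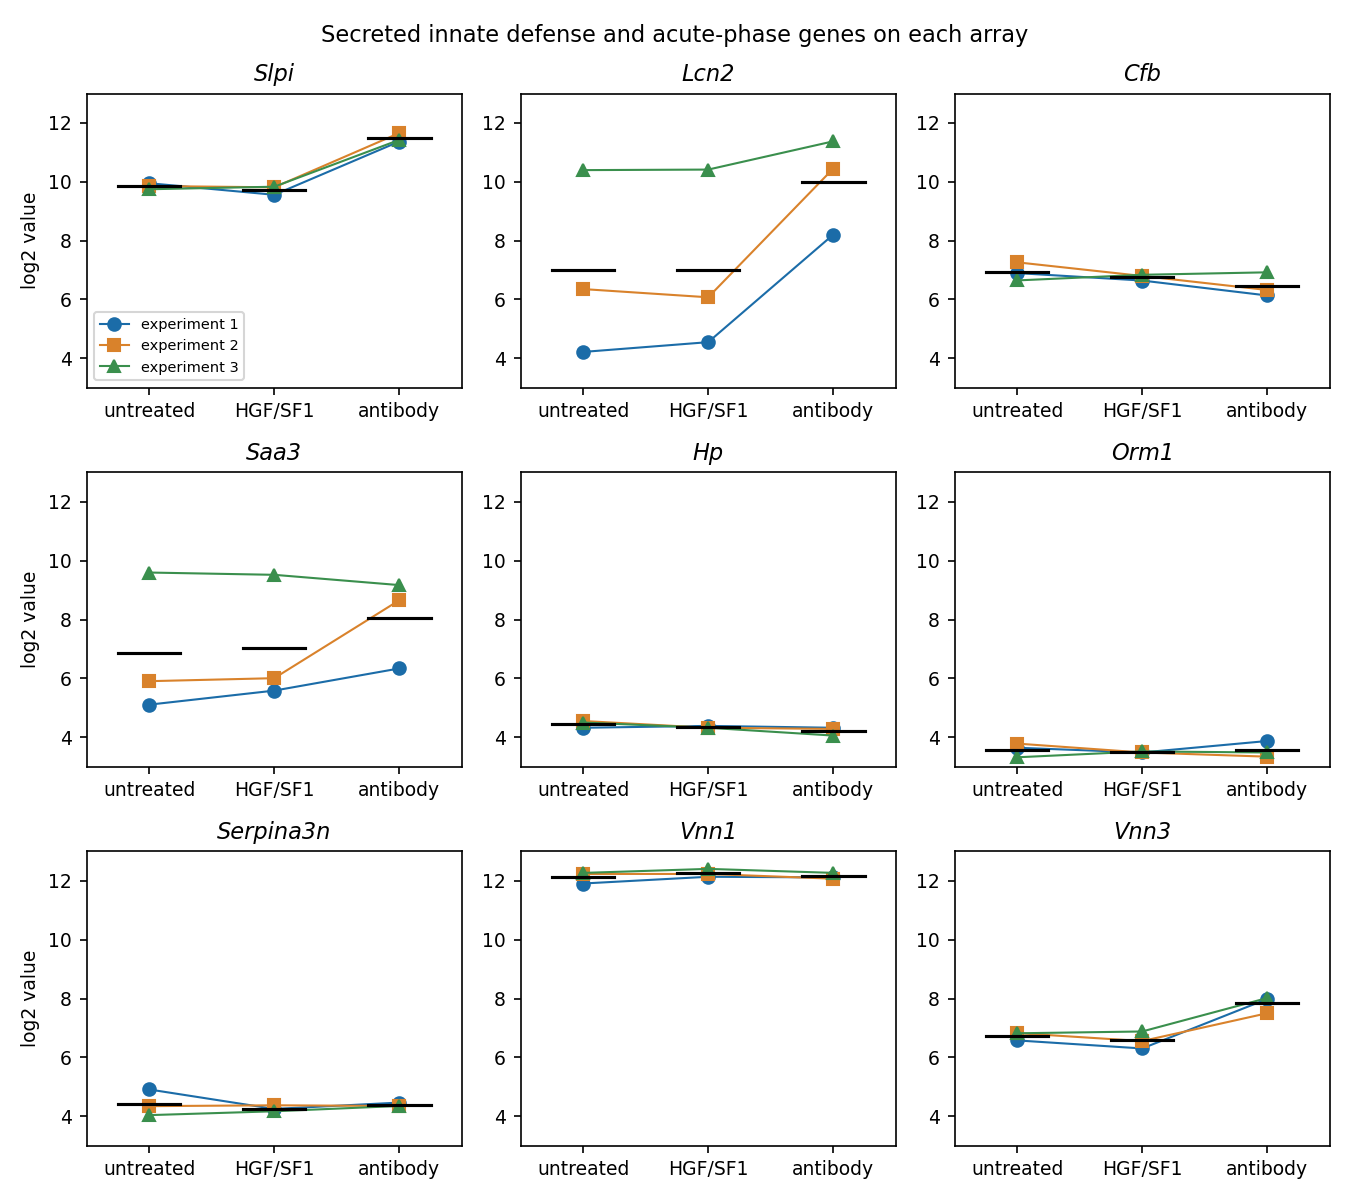
log2 value of the probe set of each of 9 genes on each array (vertical axis, log2 units) by condition, with lines joining the 3 arrays of an experiment and black bars at the mean of 3 arrays. Slpi and Vnn3 are higher after the antibody in all experiments, Vnn1 stays near 12, and Lcn2 and Saa3 start from 3 different levels in untreated cells.

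Lcn2, which encodes lipocalin 2 (2:32384637-32387739), was read at 4.21, 6.35 and 10.40 in untreated cells of experiments 1, 2 and 3. HGF/SF1-treated cells gave 4.55, 6.07 and 10.41, and antibody-treated cells 8.20, 10.45 and 11.37. The gene was therefore low, intermediate or high according to the experiment before any treatment, and untreated cells of experiment 3 lay 72.5-fold above those of experiment 1. The antibody arrays lay above the untreated array of the same experiment each time, while the groups as wholes overlapped.

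The difference within an experiment was 3.99 in experiment 1, or 15.9-fold, 4.10 in experiment 2, or 17.1-fold, and 0.98 in experiment 3, or 1.97-fold. The smallest difference thus fell in the experiment with the highest untreated value. The mean difference was 3.02 with an SE of 1.86 when arrays were taken as unpaired and of 0.65 in the paired fit with the experiment as a replicate block. It ranged from 1.63 without the untreated array of experiment 1 to 4.73 without that of experiment 3, and was 4.04 without the whole of experiment 3. Whether the response of Lcn2 differs between experiments was not tested, since each experiment holds 1 array per condition.

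Saa3, an acute-phase serum amyloid A made outside the liver as well, was read at 5.11, 5.91 and 9.60 in untreated cells. Its values were 5.59, 6.01 and 9.52 after HGF/SF1 and 6.34, 8.66 and 9.17 after the antibody. As with Lcn2, experiment 3 was the highest in all 3 conditions, and untreated cells there lay 22.5-fold above those of experiment 1. Antibody minus untreated was 1.23, 2.75 and -0.43, so experiment 3 went the other way. The mean difference of 1.19 (SE 1.42) became 1.99 without experiment 3 and 0.40 without experiment 2.

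The spread of both genes between experiments was large for this dataset. Lcn2 ranged over 6.18 log2 units among untreated arrays and 5.87 among HGF/SF1 arrays, and 0 of the 22626 probe sets ranged more widely in either condition, where the median range was 0.31 and 0.34. After the antibody its range was 3.17, and 18 probe sets were wider. Saa3 ranged over 4.49, 3.94 and 2.83 in untreated, HGF/SF1 and antibody cells, with 3, 8 and 29 wider probe sets. Slpi ranged over 0.21 in untreated cells, below the median range, with 15708 probe sets wider.

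Only 6 probe sets ranged over more than 4 log2 units among untreated arrays, and the 4 besides Lcn2 and Saa3 were named after their values were seen. They belong to Mmp13 (5.60), a collagenase, Mt2 (4.54), a metallothionein, S100a9 (4.07), a subunit of calprotectin, and Cxcl1 (4.01), a neutrophil-attracting chemokine. All 6 were highest in experiment 3 in untreated cells and after HGF/SF1. After the antibody the ranges of Mt2, S100a9 and Cxcl1 were 0.51, 0.77 and 0.68, whereas Mmp13, Lcn2 and Saa3 still ranged over 3.89, 3.17 and 2.83. The summed signal of the neutrophil list also varied in untreated cells, from 7.57 to 10.2 on the log2 scale, and lay between 11.0 and 11.5 after the antibody, through S100a8 and S100a9 with the lineage-defining Elane and Mpo low throughout. Its part in the result was not tested.

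**Figure D2:**
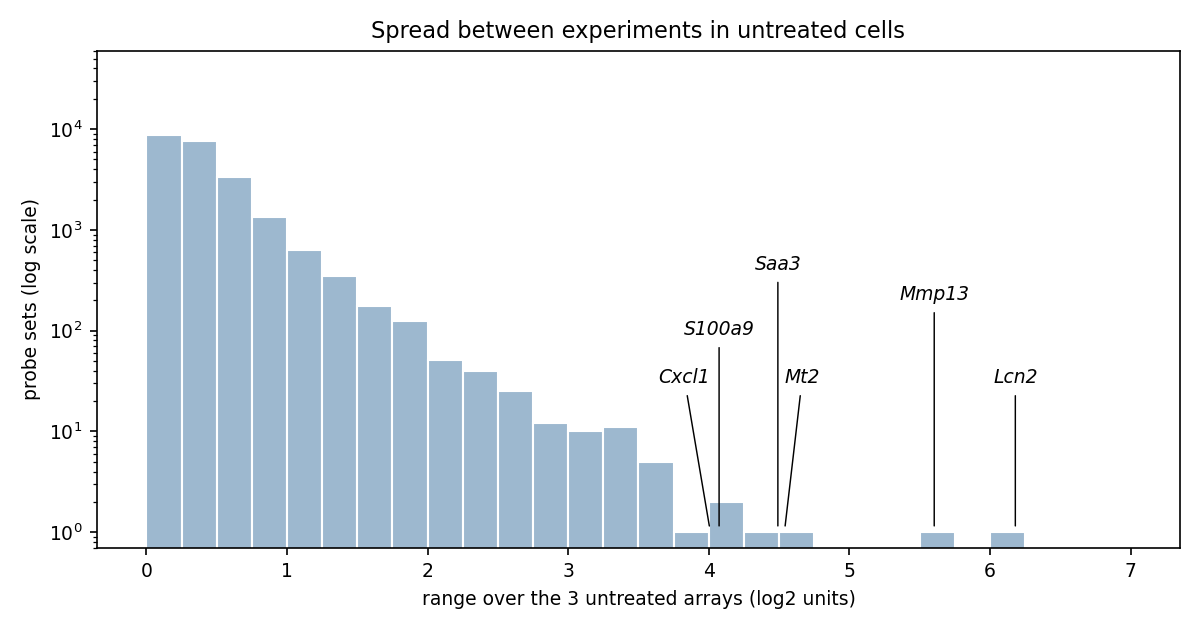
Number of probe sets (vertical axis, log scale) by the range over the 3 untreated arrays (horizontal axis, log2 units), with the 6 probe sets that exceed 4 log2 units named. Lcn2, at 6.18, is the widest of 22626, and Saa3 lies at 4.49.

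Cfb, complement factor B (17:34856374-34862514), was read at 6.90, 7.26 and 6.65 in untreated cells, 6.64, 6.80 and 6.84 after HGF/SF1 and 6.13, 6.32 and 6.92 after the antibody. Antibody cells of experiments 1 and 2 were lower than every untreated array, and those of experiment 3 were not. The differences were -0.76, -0.94 and 0.28, with a mean of -0.48 (SE 0.22), and it ranged from -0.24 without experiment 2 to -0.85 without experiment 3. In experiments 1 and 2 Cfb was thus lower in the same cells in which Slpi was higher.

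Hp, Serpina3n and Orm1, which encode plasma proteins that hepatocytes release in inflammation, were dim on every array. Hp, haptoglobin, which binds free hemoglobin (8:109575128-109579172), was between 4.06 and 4.55 on all 9 arrays. It read 4.32 on 4 of them, a value that 76 probe sets held on at least 1 array, and antibody minus untreated was 0.00, -0.27 and -0.44. Serpina3n, an extracellular antiprotease (12:104406646-104414334), was between 4.04 and 4.91, and antibody and untreated cells differed by -0.04 (SE 0.20).

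Orm1, the plasma carrier alpha-1-acid glycoprotein (4:63344556-63348163), was between 3.32 and 3.87 and read 3.48 on 3 arrays, a value found for 101 probe sets. Its difference was -0.02 (SE 0.16). The signals of Hp, Serpina3n and Orm1 lay at percentiles 32.8, 33.1 and 12.7 of all probe sets, so these 3 genes were read in the lower range of the arrays, where a change in RNA could pass unseen. Orm1 and Serpina3n have close paralogs, whose RNA the probe sets may also read.

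Set together, 5 of 9 genes were higher and 4 lower after the antibody than in untreated cells. With arrays centred on their medians Orm1 and Serpina3n turned to slightly higher (0.04 and 0.01), and with quantile normalization Vnn1 turned to slightly lower (-0.02). The median difference over the 9 was 0.02, beside -0.00 over all genes, for which the median absolute difference was 0.14. Slpi, Lcn2 and Vnn3 were higher in 3 of 3 experiments, and none of the 9 was lower in 3 of 3. No share of all probe sets was computed for this agreement, here or in the comparisons below, so whether such counts are unusual was not tested. The groups did not overlap for 2 genes, Slpi and Vnn3, both higher, as for 5.80% of all probe sets.

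By the limma fit over all probe sets, 2 of 9 genes, again Slpi and Vnn3, passed an unadjusted p under 0.05 as higher, where 4.53% of all probe sets did, and 0 as lower, where 7.29% did. Slpi alone passed after Benjamini-Hochberg adjustment, as did 0.0133% of all probe sets in that direction. With the experiment as a replicate block, Lcn2 was added, which made 3 higher and 0 lower beside 8.05% and 10.1% of all probe sets. Since these contrasts served to choose the genes, the counts describe them and carry no weight as evidence.

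**Figure D3:**
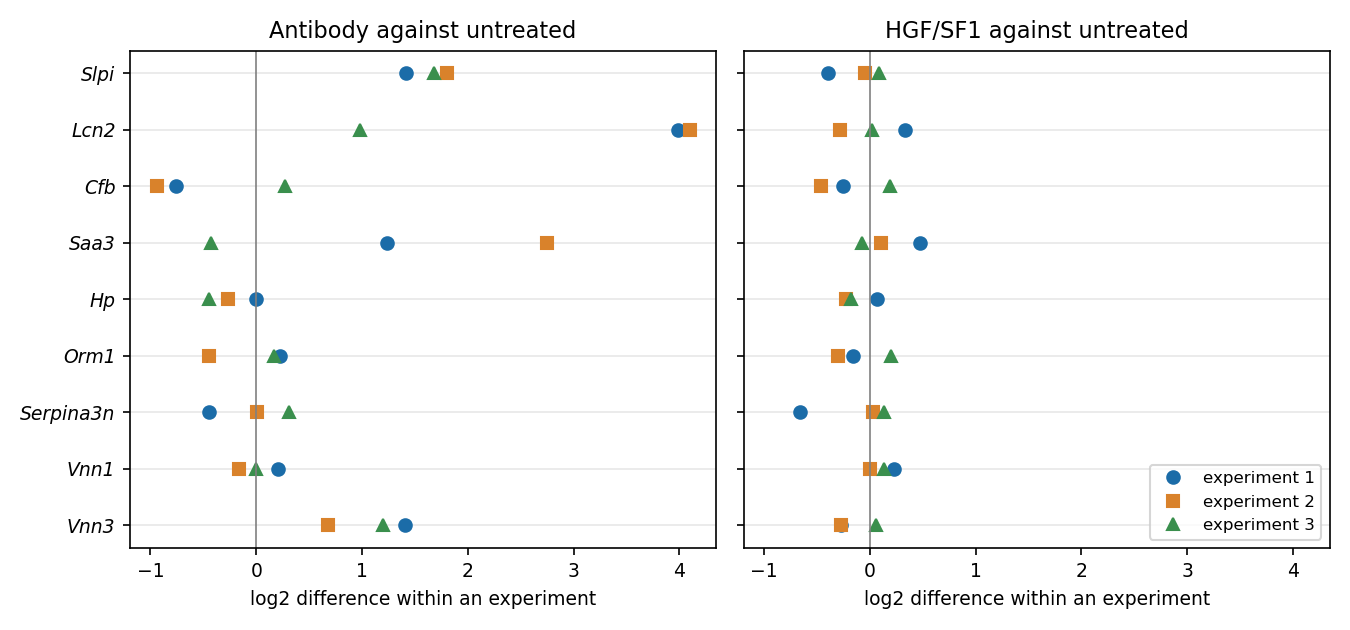
Difference from the untreated array of the same experiment (horizontal axis, log2 units) for 9 genes, with 1 point per experiment, for the antibody at left and HGF/SF1 at right. After the antibody Lcn2 reaches 4.10, while after HGF/SF1 no point exceeds 0.66 in size.

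HGF/SF1, the other stimulus of migration, was set against untreated cells to ask whether these genes also move when Met is engaged. None of the 9 genes passed in limma, with unadjusted p from 0.320 to 0.990 and an adjusted p of 1 for each. Of all probe sets, 0.499% passed as higher and 0.349% as lower. In the paired fit with the experiment as a replicate block, 0 of 9 passed either, beside 0.959% and 0.857% of all probe sets.

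Slpi differed by -0.12 (95% interval -0.40 to 0.16) and Vnn3 by -0.16 (interval -0.59 to 0.27). Lcn2 differed by 0.02, with 0.33, -0.28 and 0.02 in the 3 experiments. Its interval was -4.24 to 4.28 unpaired and -1.52 to 1.57 paired, so that the 2 conditions followed each other closely within experiments while the unpaired fit bounded only very large changes. Saa3 differed by 0.17, with 0.48, 0.10 and -0.08.

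Of the other members, Cfb differed by -0.18 (95% interval -0.69 to 0.34), Serpina3n by -0.17 (-0.62 to 0.29), Vnn1 by 0.12 (-0.18 to 0.42), Hp by -0.11 (-0.36 to 0.13) and Orm1 by -0.09 (-0.46 to 0.29). In all, 3 genes were higher and 6 lower, with a median of -0.11 beside 0.01 over all genes. No gene had groups apart from each other, as 2.13% of all probe sets did on the higher and 1.56% on the lower side, and none was higher, or lower, in 3 of 3 experiments. A p above the threshold does not show that HGF/SF1 left these genes unchanged.

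Antibody against HGF/SF1 sets the stimuli side by side and shares its antibody arrays with the comparison above. Slpi was higher by 1.75 (SE 0.12) and Vnn3 by 1.26 (SE 0.19), in 3 of 3 experiments and with groups that did not overlap, as for 5.70% of all probe sets. Lcn2 was higher by 3.66, 4.38 and 0.96 in the 3 experiments, and Saa3 by 0.75 and 2.65 in experiments 1 and 2 but lower in experiment 3 (-0.35). Hp and Vnn1 were lower in 3 of 3 experiments, but by small amounts. Hp differed by -0.06, -0.04 and -0.27, with a mean of -0.12 (SE 0.11). Vnn1 differed by -0.02, -0.16 and -0.14, with a mean of -0.11 (SE 0.13). For both genes the groups overlapped and the unadjusted threshold was not passed, so the shared sign is not read as a decrease. Of the 9 genes, 2 passed the unadjusted threshold as higher, where 5.20% of all probe sets did, and 0 as lower, where 7.96% did.

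Genes that share a pathway with the members were listed from general knowledge in 7 groups, of which 140 of 162 genes were measured. The lists were drawn up with earlier results of these data known, so their counts are a description. After the antibody 5 rose and 4 fell by an unadjusted limma p under 0.05, smaller shares than the 4.53% and 7.29% of all probe sets given above. This holds for the 7 groups pooled, and the calls were spread unevenly among them. Of the 5 that rose, 4 were among the 27 cytokines, receptors and transcription factors. Of the 4 that fell, 2 were among the 9 genes of coenzyme A and cysteamine metabolism. None of the 140 passed after adjustment, where the 9 that passed unadjusted had adjusted p from 0.170 to 0.377. Depending on the array or experiment left out, between 7 and 15 of the 140 passed, with 15 without the HGF/SF1 or the antibody array of experiment 1. The paired fit gave 8 that rose and 9 that fell, beside 8.05% and 10.1% of all probe sets.

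The other positive acute-phase plasma proteins numbered 21 measured of 27. Of these 0 rose and 1 fell, Hpx, the heme carrier hemopexin, with a difference of -0.36 (SE 0.13, limma adjusted p = 0.343). Hpx lay between 3.79 and 4.46 on all arrays, and its unadjusted p was up to 0.0949 when 1 array was left out. Only 2 of the 21 were brighter than the median probe set. None of 9 negative acute-phase proteins passed, and 0 of those 9 exceeded the median.

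Complement, the cascade that Cfb serves, had 30 of 35 genes measured, and 0 rose or fell in limma at an unadjusted p under 0.05. The paired fit added Clu, the complement inhibitor clusterin, as lower. Epithelial antimicrobial proteins and those with a WAP domain, the fold of Slpi, had 26 of 29 measured and likewise 0 that passed, with Pglyrp1, a peptidoglycan recognition protein, added as higher by the paired fit. The median difference was -0.00 over the complement genes and -0.01 over the antimicrobial and WAP-domain genes, beside the 1.63 of Slpi. Only 6 of the 30 complement genes and 3 of the 26 others were brighter than the median probe set. Most were thus read in the lower range of the arrays, where a change in RNA could pass unseen.

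Of 18 receptors and binding partners of the members, all measured, 1 rose and 0 fell. It was Plscr1, phospholipid scramblase 1, which read 9.26, 9.71 and 9.79 in untreated and 9.85, 10.13 and 10.44 in antibody cells. The difference of 0.56 (SE 0.20, limma adjusted p = 0.331) had an unadjusted p of up to 0.0863 when 1 array was left out.

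The substrates and products of vanins belong to coenzyme A and cysteamine metabolism, of which 9 of 13 genes were measured and 2 fell. Ppcs, phosphopantothenoylcysteine synthetase of coenzyme A synthesis, read 7.48, 7.35 and 7.25 in untreated and 6.85, 5.59 and 5.42 in antibody cells. It fell by 1.41 (SE 0.33, limma adjusted p = 0.196), with no overlap of the groups. Slc6a6, the taurine transporter, went from 8.80, 8.97 and 9.17 to 8.31, 8.21 and 7.93 and fell by 0.83 (SE 0.16, limma adjusted p = 0.170). Both passed the unadjusted threshold whichever array or experiment was left out.

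Inflammatory cytokines, receptors and transcription factors had 27 of 30 measured, of which 4 rose and 1 fell. Nfkbia, which encodes the NF-kappaB inhibitor IkappaB-alpha, rose by 1.23 (SE 0.24, limma adjusted p = 0.170) and passed the unadjusted threshold whichever array or experiment was left out. Il6, the main inducer of acute-phase genes, read 3.95, 4.98 and 7.37 in untreated cells and 7.49, 9.41 and 7.70 after the antibody. Like Lcn2 and Saa3 it was highest in experiment 3 in untreated cells, and its differences were 3.54, 4.43 and 0.32.

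The mean rise of Il6 was 2.77 (SE 0.86, limma adjusted p = 0.271), with an unadjusted p of up to 0.145 when 1 experiment was left out. Lif, a cytokine of the Il6 family, rose by 0.64 (SE 0.20, limma adjusted p = 0.275), with 1.10, 0.76 and 0.06 in the 3 experiments and an unadjusted p of up to 0.114 when 1 experiment was left out. Cebpb, the C/EBP factor of the acute-phase response, rose by 0.87 (SE 0.35, limma adjusted p = 0.377), with an unadjusted p of up to 0.127 when 1 array was left out. Myd88, the adaptor of Toll-like and interleukin 1 receptors, fell by 1.31 (SE 0.35, limma adjusted p = 0.219), with an unadjusted p of 0.0826 without experiment 3. Where these genes had several probe sets, as Nfkbia with 4, Slc6a6 with 3 and Plscr1, Lif and Cebpb with 2 each, all probe sets of the gene differed in the same direction.

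**Figure D4:**
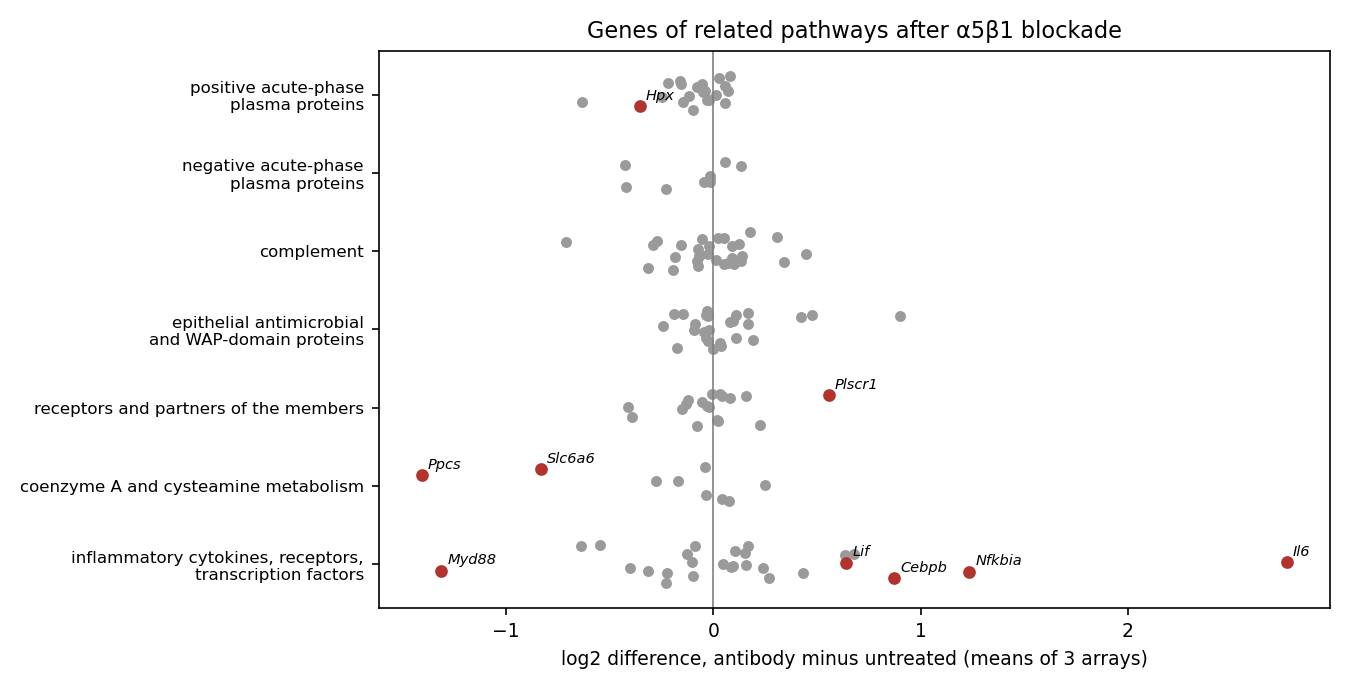
Difference between the means of 3 antibody and 3 untreated arrays (horizontal axis, log2 units) for 140 genes in 7 groups related to the members, with red and named points for the 9 genes that passed an unadjusted limma p under 0.05. The groups lie close to 0 apart from a few cytokine, transcription factor and metabolic genes, with Il6 at 2.77 and Ppcs at -1.41.

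After HGF/SF1, 0 of the 140 related genes passed an unadjusted p under 0.05 in limma. Of all probe sets, 0.499% passed as higher and 0.349% as lower. The paired fit called 1 as higher, Cfp, the complement regulator properdin, and 1 as lower, Cp, the copper carrier ceruloplasmin. These counts lie near the shares of all probe sets in that fit, 0.959% and 0.857%, and say nothing particular of these genes. Among cells of other lineages, 0 of 7 endothelial and 0 of 8 stellate and fibroblast markers exceeded the array median in the mean of any condition. Of 10 macrophage markers, 1 rose by the unadjusted threshold after the antibody, Cd68, which also marks lysosomes, by 2.60 (SE 0.65, limma adjusted p = 0.207). Cd14, the co-receptor for lipopolysaccharide, was bright at 11.94 in untreated cells and differed by -0.54 (SE 0.39), and the other 8, Ptprc, Adgre1, Csf1r and Lyz2 among them, lay between 3.02 and 5.42 on all arrays. The summed signal of the macrophage list was 11.8 to 12.2 in untreated and 11.2 to 12.4 in antibody cells, and its part in the member values was not tested. Of 9 neutrophil markers, 1 also rose by the unadjusted threshold after the antibody, S100a9, by 3.61 (SE 1.19, limma adjusted p = 0.291). S100a8 was higher by 2.65 (SE 1.17) and did not pass that threshold. For both genes all antibody arrays lay above all untreated arrays. In whole-culture RNA, a change in the number of cells of a type and a change in RNA per cell cannot be told apart.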

How the data were processed

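RNA of MLP29 cells was measured in 9 samples with 1 array each. The authors analysed the arrays together in affylmGUI, corrected the background by the rma method and deposited log2 values, 1 per probe set. The normalization between arrays and the summary per probe set are not given in the sources used here, and the values were used as deposited. Conditions and experiments were taken from the sample titles, which carry 3 shared days. Deviations from the condition means correlated with r from 0.0958 to 0.591 between arrays of 1 experiment and from -0.484 to 0.0308 otherwise, so the experiment was also fitted as a replicate block.

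Of 22690 probe sets, 64 controls were left out. In the annotation, 20380 probe sets have 1 gene name, 691 several names and 1555 no name, with 20351 found among RefSeq symbols (GRCm38.p6). A related gene with several probe sets was represented by the one with the highest mean. A mean per condition was fitted over all 22626 probe sets with limma 3.58.1 in R 4.3.3 (lmFit and eBayes, two-sided, 6 residual degrees of freedom, prior 2.39). The threshold was an unadjusted p under 0.05, with Benjamini-Hochberg adjustment over all probe sets given beside it. The 3 arrays per condition limit the precision. The p-values of the main fit rest on the spread between arrays of a condition, which eBayes draws towards that of all probe sets. In the paired fit, differences between experiments are taken out of that spread. Of the probe sets, 42.1% held the same value on 2 or more arrays.

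The members and lists were chosen with earlier results of these data known. From each list, up to 4 genes past the threshold with the smallest p after the antibody were named, and up to 2 after HGF/SF1, with the genes of the paired fit and of the widest ranges added after their values were seen. The unpaired fit of antibody against untreated cells was tested on simulated data without differences between experiments. The paired fit and the other comparisons were not tested in this way. Alternatives were the replicate block, centring, quantile normalization, a brightness filter, other fits and leaving out each array or experiment. Promoter windows came from RefSeq.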

Additional observations from a re-analysis of the deposited data

How the results depend on the processing

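Among counts and medians, 117 values under the alternatives stayed within 1.5 times the main count or within the spread, and 26 did not. Of 531 values of single genes, 80 kept a call at the unadjusted threshold with none lost, 18 newly passed that threshold in the same direction and the others did not pass. Of the values that did not pass, 27 values of 6 genes changed sign, to between -1.68 and 0.20, and 24 of these arose when an array or experiment was left out. These belong to Orm1, Serpina3n and Vnn1 and, for HGF/SF1 against untreated cells alone, to Lcn2, Saa3 and Slpi. In all, 12 values (Lcn2 and Saa3 after HGF/SF1 with 1 array left out) moved beyond the spread. The cause was not tested for any of these. The median antibody difference of the members was 1.14 over probe sets brighter than the median, which leaves fewer genes, and ranged from 0.015 to 0.197 when 1 array or experiment was left out. Member genes past the threshold after the antibody numbered 3 with the experiment as a replicate block, 4 with it as a random block (Slpi, Vnn3, Cfb, Hp), 1 after adjustment and from 2 to 5 with 1 array or experiment left out. The 5 were Slpi, Vnn3, Lcn2, Saa3 and Cfb, without experiment 3, and 4 of these without its untreated array. Against HGF/SF1 the count was 3 with the replicate block (Slpi, Vnn3, Lcn2), 1 after adjustment in the main fit and from 2 to 4 with 1 left out. After adjustment in the paired fit of this comparison, 2 members passed, Slpi (adjusted p = 0.0221) and Vnn3 (0.0417). Of the 140 related genes, 3 passed there. Related genes past the threshold after the antibody numbered 17 with the replicate block, 16 with the random block, 0 after adjustment and from 7 to 15 with 1 array or experiment left out. After HGF/SF1 they numbered 2 with the replicate block, 1 with the random block, 2 with an intensity trend, 1 with the mean of all probe sets of a gene and from 0 to 6 with 1 left out, 6 without the HGF/SF1 array of experiment 2. Shares of all probe sets are given only for the main fit and, against untreated cells, for the fit with the replicate block. Counts under the other settings have no such share beside them, so a larger count there is not read as a result about these genes. The number of arrays limits every value, and for dim genes such as Orm1 and Hp the signal over background does too.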
